A study of Mus musculus with 4 samples.

Results

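The genes described are 8 components of the switch that turns RAS on and off and passes its signal on: the RAS isoforms Hras and Nras, the RAF kinases Araf and Braf, the RAS inhibitors Nf1 and Rasa1, and the RAS activators Sos1 and Sos2. They were taken by gene symbol from the count files of 4 mouse lung tumour samples, where all 8 of 8 were found among 24391 listed genes, and all 8 passed the count filter that left 16001 genes for testing. The K-Ras group (2 samples) consisted of tumours carrying K-Ras LSL-G12D, an allele of mutant K-Ras held silent by a stop cassette between lox sites until Cre recombinase removes it. The K-Ras Mll4-/- group (2 samples) carried the same allele together with floxed Mll4, the gene now called Kmt2d, which encodes an enzyme that methylates histone H3 at enhancers. Both groups therefore share the K-Ras allele, and no sample without it was compared. The Cre driver, the way Cre was delivered, and the strain, sex and age of the mice are not given in the sources used here. The tumours were dissociated, leukocytes bearing CD45 were depleted, and total RNA was sequenced. The labels number the samples of a group 1 and 2 without saying whether they came from separate mice, so the spread between them may be partly technical.

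RAS proteins are small GTPases that signal when bound to GTP and rest when bound to GDP. Exchange factors such as SOS1 and SOS2, which are brought to the membrane by activated growth factor receptors, load RAS with GTP, and GTPase-activating proteins such as neurofibromin (the product of Nf1) and p120 RasGAP (the product of Rasa1) speed up its return to the resting state. Active RAS binds RAF kinases, which phosphorylate MEK, which in turn phosphorylates ERK. Mutant K-Ras is a common driver of lung adenocarcinoma because it resists GTPase-activating proteins, while the normal isoforms still depend on them. Much of the control of this pathway acts on proteins and not on transcript levels.

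The 8 genes differed little between the groups. None was called between K-Ras Mll4-/- and K-Ras tumours at an adjusted p under 0.05 (edgeR quasi-likelihood test, smallest adjusted p = 0.224 for Sos1), against a background of 0.0375% of the 16001 tested genes, or 6 genes. Fitted differences ran from -0.12 for Nf1 to 0.36 for Sos1 on the log2 scale, with a median of 0.10, beside a median of -0.01 over all tested genes. Every member lay within 0.5 of zero on this scale, as did 64.7% of all tested genes. DESeq2, which called 10.4% of the genes to which it gave an adjusted p, and the edgeR likelihood ratio test, which called 9.39% of tested genes, each called 0 of the 8. At an unadjusted edgeR p under 0.05 there was 1 member, Sos1, or 12.5% of them, beside 21.8% of all tested genes. Sos1 passed this unadjusted threshold with no filter, with limma-voom, with a non-robust fit and with the replicate block, and missed it under the other 12 alternatives. CPM is a gene's reads relative to all reads of the tested genes in the library, after the library scaling of edgeR known as TMM. In CPM the groups did not overlap for 4 of 8 members, all of them higher in K-Ras Mll4-/- tumours. The groups did not overlap for 58.3% of all tested genes, and 29.9% of genes did so with K-Ras Mll4-/- higher.

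The start regions of the 4 members whose groups did not overlap are shown. These genes were higher in each K-Ras Mll4-/- sample than in either K-Ras sample. The groups did not overlap for 58.3% of all tested genes, and for 29.9% with K-Ras Mll4-/- higher, so this choice does not set the 4 genes apart. Each runs from 250 bases before the annotated start to 50 bases after it, from RefSeq on GRCm38.p6, and is written 5′ to 3′ on the strand of the gene. Capitals mark matches, on either strand, to any of GGGCGG (the GC box bound by SP1-like factors), CCAAT, TGACGTCA (the cAMP response element), CCGGAAG (an ETS core), the NRF1 motif, CACGTG (the E-box), TGANTCA (the AP-1 motif) and TATAAA. The positions are Hras at chr7:141193955-141194254, minus strand, Nras at chr3:103058035-103058334, plus strand, Sos1 at chr17:80480404-80480703, minus strand, and Sos2 at chr12:69681803-69682102, minus strand.
Hras: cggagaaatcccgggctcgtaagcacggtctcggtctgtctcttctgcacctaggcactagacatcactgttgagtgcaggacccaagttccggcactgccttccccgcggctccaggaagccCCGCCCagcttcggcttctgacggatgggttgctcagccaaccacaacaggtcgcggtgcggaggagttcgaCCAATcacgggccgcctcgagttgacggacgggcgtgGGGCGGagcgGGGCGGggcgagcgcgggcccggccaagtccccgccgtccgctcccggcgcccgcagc
Nras: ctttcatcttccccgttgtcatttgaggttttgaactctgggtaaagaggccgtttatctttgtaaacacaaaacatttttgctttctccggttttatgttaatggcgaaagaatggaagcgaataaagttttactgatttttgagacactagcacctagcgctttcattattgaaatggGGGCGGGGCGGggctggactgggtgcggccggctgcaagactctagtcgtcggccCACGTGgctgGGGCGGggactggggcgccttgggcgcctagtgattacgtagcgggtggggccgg
Sos1: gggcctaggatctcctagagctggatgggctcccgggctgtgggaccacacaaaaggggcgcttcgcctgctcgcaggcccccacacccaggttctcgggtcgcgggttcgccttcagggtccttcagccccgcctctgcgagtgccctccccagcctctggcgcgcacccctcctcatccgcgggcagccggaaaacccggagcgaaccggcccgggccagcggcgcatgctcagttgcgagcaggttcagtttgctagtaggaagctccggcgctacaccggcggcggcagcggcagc
Sos2: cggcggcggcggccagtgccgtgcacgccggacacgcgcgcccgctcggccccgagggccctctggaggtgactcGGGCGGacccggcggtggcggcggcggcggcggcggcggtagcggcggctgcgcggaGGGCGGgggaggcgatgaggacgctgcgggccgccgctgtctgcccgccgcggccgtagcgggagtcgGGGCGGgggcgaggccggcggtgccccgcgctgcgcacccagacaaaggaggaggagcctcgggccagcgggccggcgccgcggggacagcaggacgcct

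These windows share no single motif of those searched. Hras held 3 GC boxes and 1 CCAAT box, Nras held 3 GC boxes (2 of them overlapping) and 1 E-box, Sos2 held 3 GC boxes, and Sos1 held no match. Over all 8 members, 6 windows held a GC box, beside 35.7% of the 32851 RefSeq start regions of the same length, 2 held a CCAAT box (37.4% of all regions), 2 an ETS core (8.86%), 2 an NRF1 motif (4.60%), 1 an E-box (7.15%) and 1, Braf, the cAMP response element (1.79%). None held the AP-1 motif or TATAAA, which 7.81% and 13.6% of all regions hold. All 8 windows were rich in the dinucleotide CG, with between 14 in Araf and 54 in Sos2, against a median of 7 over all regions. The 54 of Sos2 exceeded the number in 99.7% of all start regions. These matches describe letters in a window and do not show that a factor binds there.

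Read depth was not a limit for these genes. Gene-assigned reads numbered between 26683033 and 36677987 per sample, and members had between 1059 reads (Hras in K-Ras Mll4-/- replicate 1) and 7174 reads (Nf1 in K-Ras replicate 2), so that counting error was at most 3.07% of a value. The number of samples sets the precision. Kmt2d, the floxed gene, stood at 395 and 526 CPM in the K-Ras samples and at 367 and 317 CPM in the K-Ras Mll4-/- samples, a log2 difference of -0.43 (SE 0.21) that missed the threshold (edgeR quasi-likelihood adjusted p = 0.302). Counts per gene do not resolve the deletion of single exons, so the loss of Mll4 is taken from the labels. Markers of alveolar type 2 cells, the surfactant-making cells of the lung, summed to between 18730 and 30680 CPM per sample. The labelled tissue was therefore evident. Immune RNA remained after the CD45 depletion, with reads for all 14 immune markers in every sample. These summed to 5280 and 4651 CPM in K-Ras and to 5383 and 3406 CPM in K-Ras Mll4-/- samples. Ptprc, which encodes CD45, stood at 274.5 and 142.8 CPM in K-Ras and at 268.9 and 170.7 CPM in K-Ras Mll4-/- samples. Of the 10 endothelial markers, 8 were lower in both K-Ras Mll4-/- samples than in either K-Ras sample, as were 28.5% of all tested genes. The summed level of the endothelial markers was 8271 and 7808 CPM in K-Ras against 5147 and 4034 CPM in K-Ras Mll4-/- samples. Of the 10 fibroblast markers, 8 were also lower in both (28.5% of all tested genes). Their sums were 2713 and 1283 CPM in K-Ras against 966 and 984 CPM in K-Ras Mll4-/- samples. All 9 ciliated markers were lower in both K-Ras Mll4-/- samples than in either K-Ras sample (28.5% of all tested genes). K-Ras replicate 2 stood apart in these airway markers, with a sum of 984 CPM against 175 CPM in the other K-Ras sample. Their sums were 96.4 and 104 CPM in the K-Ras Mll4-/- samples. Club cell markers, also of the airway, summed to 1180 and 4838 CPM in K-Ras and to 1009 and 752.5 CPM in K-Ras Mll4-/- samples. Of these 7, 3 were lower in both K-Ras Mll4-/- samples (28.5% of all tested genes) and 0 higher. Of the 8 alveolar type 1 markers, 2 were lower and 3 higher in both (29.9% of all tested genes). All endothelial, fibroblast, ciliated, club and alveolar type 1 markers had reads in every sample. Their part in the results on the 8 genes was not tested, and in bulk tissue fewer cells of a type and less RNA per cell cannot be told apart.

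**Figure D1:**
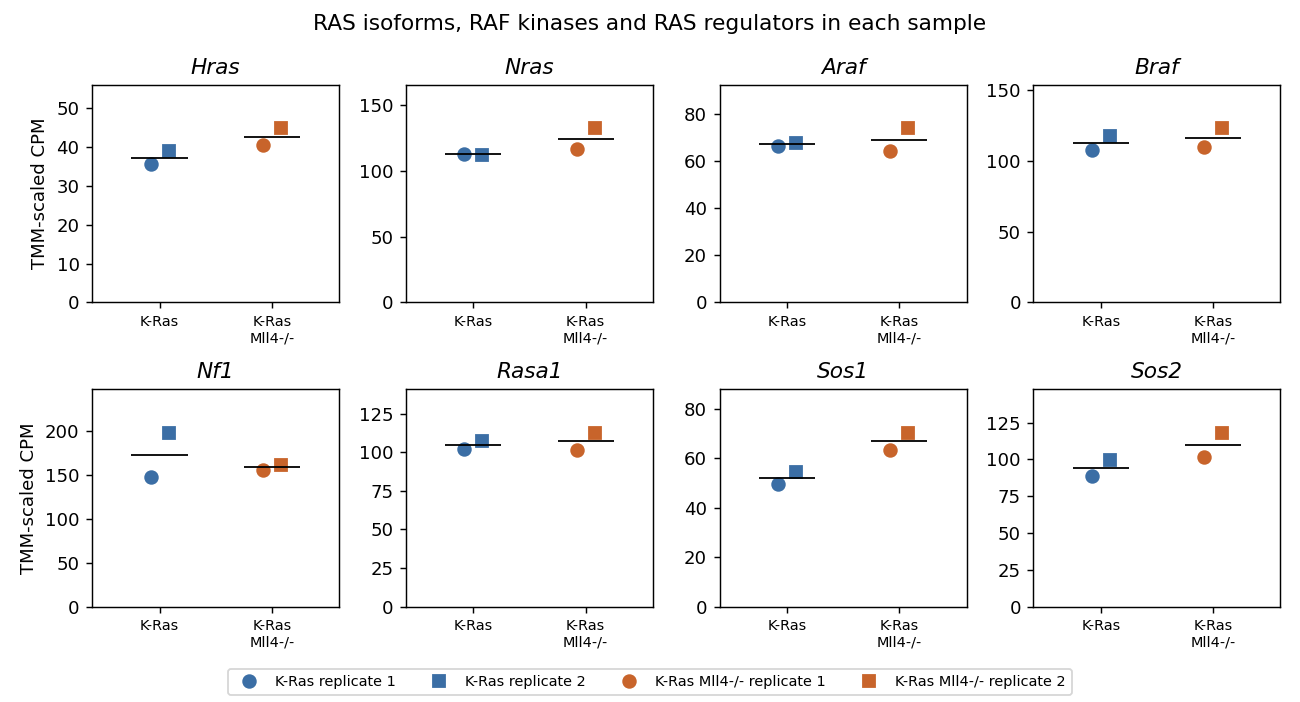
Expression of the 8 genes in each of the 4 samples, as TMM-scaled CPM on axes that start at 0; circles are replicate 1, squares replicate 2, and horizontal lines the group means. Sos1 shows the clearest gap between the groups, from 54.6 CPM in the higher K-Ras sample to 63.2 CPM in the lower K-Ras Mll4-/- sample, and Nf1 the widest spread within the K-Ras group, from 148 to 198 CPM.

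The RAS isoforms were higher in both K-Ras Mll4-/- samples by small amounts and were not called. Hras encodes the isoform first found in the Harvey sarcoma virus, and Nras the one first found in neuroblastoma; both proteins share nearly the same switch domain and differ mainly in their membrane-anchoring tails. Hras stood at 35.7 and 38.7 CPM in the K-Ras samples and at 40.3 and 44.7 CPM in the K-Ras Mll4-/- samples. Both K-Ras Mll4-/- samples were above both K-Ras samples, by 1.59 CPM at the nearest pair. In the fit the log2 difference was 0.19 (SE 0.13, 95% interval -0.16 to 0.54, edgeR quasi-likelihood adjusted p = 0.444). Nras stood at 113 and 112 CPM in the K-Ras samples and at 117 and 132 CPM in the K-Ras Mll4-/- samples. The groups again did not overlap, and the sample that set most of the difference was K-Ras Mll4-/- replicate 2. For Nras the log2 difference was 0.15 (SE 0.13, 95% interval -0.20 to 0.49, edgeR quasi-likelihood adjusted p = 0.542), and it was 0.05 without that sample. Within a library the number of Hras reads per Nras read does not depend on how libraries are scaled. This ratio was 0.315 and 0.346 in K-Ras and 0.345 and 0.338 in K-Ras Mll4-/- samples, so the groups overlapped and the proportion of the 2 isoforms did not differ beyond the spread (exact two-sided permutation p = 1, where 2 samples against 2 cannot give less than 0.333).

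Neither RAF kinase differed between the groups by more than 0.05 on the log2 scale. Araf is encoded on the X chromosome and its product is the RAF of lowest basal kinase activity, whereas B-RAF is the most active of the family. Araf stood at 66.5 and 67.6 CPM in the K-Ras samples and at 64.4 and 73.8 CPM in the K-Ras Mll4-/- samples. The K-Ras values lay between the values of the other group, so the groups overlapped. Araf differed by 0.04 on the log2 scale (SE 0.13, 95% interval -0.30 to 0.39, edgeR quasi-likelihood adjusted p = 0.873). Braf stood at 108 and 118 CPM in the K-Ras samples and at 110.0 and 123 CPM in the K-Ras Mll4-/- samples. Here too the groups overlapped, and the sample numbered 2 was the higher in each. Braf differed by 0.05 on the log2 scale (SE 0.13, 95% interval -0.31 to 0.40, edgeR quasi-likelihood adjusted p = 0.862). Both signs turned with the scaling, to -0.01 for Araf and -0.01 for Braf with upper quartile scaling, and without K-Ras Mll4-/- replicate 2, to -0.07 and -0.04. Braf reads per Araf read numbered 1.62 and 1.74 in K-Ras and 1.71 and 1.67 in K-Ras Mll4-/- samples, a mean log2 difference of 0.01 with overlapping groups. In the GENCODE M21 annotation 146 bases of Braf exons are shared with Ndufb2 on the opposite strand, and Araf shares 9 with Syn1. Rasa1 shares 12 bases with Ccnh, also on the opposite strand. The counting is not stated to use strand. Ndufb2 had at most 318 reads in a sample and Braf at least 2887, and the effect of these overlaps on the counts was not tested.

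The inhibitors of RAS showed no common direction. Nf1 is a tumour suppressor lost in neurofibromatosis type 1 and in some lung adenocarcinomas, and Rasa1 encodes a RAS GTPase-activating protein that docks on phosphorylated receptors. Nf1 stood at 148 and 198 CPM in the K-Ras samples and at 156 and 162 CPM in the K-Ras Mll4-/- samples. K-Ras replicate 2 was far above the other 3 samples, which lay between 148 and 162 CPM. For Nf1 the fitted log2 difference was -0.12 (SE 0.19, 95% interval -0.61 to 0.37, edgeR quasi-likelihood adjusted p = 0.727). Without K-Ras replicate 2 its direction turned to 0.09. Rasa1 was the steadiest member, at 102 and 107 CPM in the K-Ras samples and 102 and 113 CPM in the K-Ras Mll4-/- samples. Its highest and lowest samples differed by 0.15 on the log2 scale, a range narrower than that of all but 3.84% of the tested genes. Its log2 difference was 0.04 (SE 0.13, 95% interval -0.30 to 0.37, edgeR quasi-likelihood adjusted p = 0.888), and it turned to -0.02 with upper quartile scaling, to -0.01 with total counts and to -0.05 without K-Ras Mll4-/- replicate 2. Nf1 reads per Rasa1 read were 1.45 and 1.85 in K-Ras and 1.54 and 1.44 in K-Ras Mll4-/- samples, with overlapping groups.

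The activators Sos1 and Sos2 had the largest positive differences of the 8 genes. Both encode exchange factors that are held by the adaptor GRB2 and are brought with it to activated receptors. Sos1 stood at 49.6 and 54.6 CPM in the K-Ras samples and at 63.2 and 70.4 CPM in the K-Ras Mll4-/- samples. The groups did not overlap, and the gap between them exceeded the distance between replicates in either group. In the fit Sos1 differed by 0.36 on the log2 scale (SE 0.13), or 1.28-fold, with a 95% interval of 1.01-fold to 1.63-fold that is not adjusted for the number of genes. After adjustment over all genes it missed the threshold (edgeR quasi-likelihood adjusted p = 0.224), and its rank by p was 3320 among the 16001 genes. Over the other scalings, filters, tests, the replicate block and the offsets, the difference stayed between 0.30 and 0.37, and it was between 0.27 and 0.44 when 1 sample was left out. Sos2 stood at 88.8 and 99.3 CPM in the K-Ras samples and at 102 and 118 CPM in the K-Ras Mll4-/- samples. Both K-Ras Mll4-/- samples were the higher, although the nearest pair differed by only 2.40 CPM. Sos2 had a log2 difference of 0.23 (SE 0.14, 95% interval -0.15 to 0.61, edgeR quasi-likelihood adjusted p = 0.407). Sos2 reads per Sos1 read numbered 1.79 and 1.82 in K-Ras and 1.61 and 1.68 in K-Ras Mll4-/- samples. This ratio was the 1 of the 4 examined whose groups did not overlap, with a mean log2 difference of -0.13 (exact two-sided permutation p = 0.333, the smallest the design allows, and 1 after Benjamini-Hochberg adjustment over the 4 ratios).

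**Figure D2:**
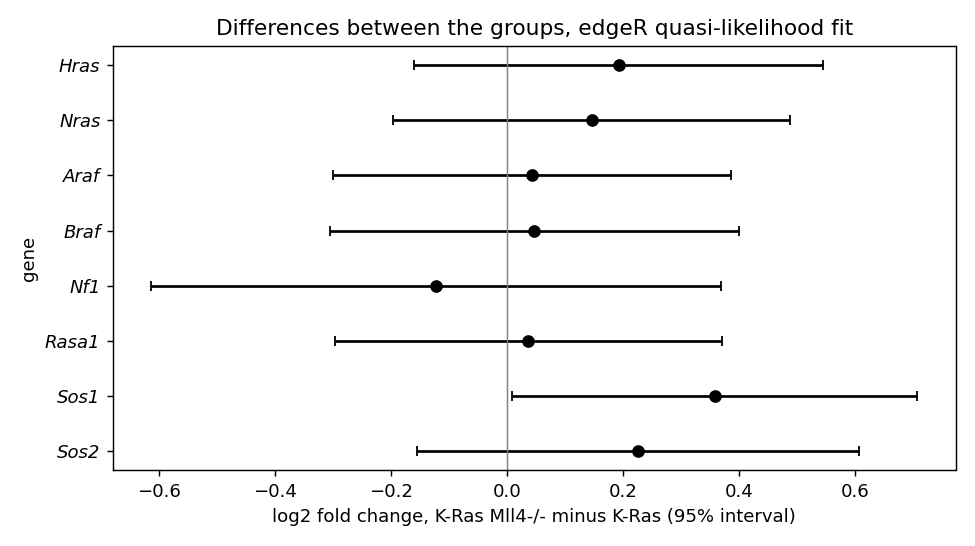
Log2 fold change (K-Ras Mll4-/- minus K-Ras) of each gene on the horizontal axis, with 95% intervals from the edgeR quasi-likelihood fit that are not adjusted for multiple testing. The interval of Sos1, from 0.01 to 0.71, is the 1 interval that lies above 0, and the other 7 include 0.

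The sample K-Ras Mll4-/- replicate 2 had the highest CPM for 7 of the 8 genes, Nf1 being the exception, whereas 29.0% of all tested genes were highest there. K-Ras replicate 1 had the lowest CPM for 5 of the 8, whereas 27.3% of all tested genes were lowest there. The count of positive log2 differences was 7 of 8, or 87.5%, beside 48.8% of all tested genes. It was 4 of 8 with upper quartile scaling, with total counts alone and without K-Ras Mll4-/- replicate 2, and 5 of 8 with offsets for GC content and transcript length. No scaling moved the median of all genes by more than 0.06 on the log2 scale. The members are 4 pairs of related genes measured in the same libraries and are not independent observations of a shift.

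**Figure D3:**
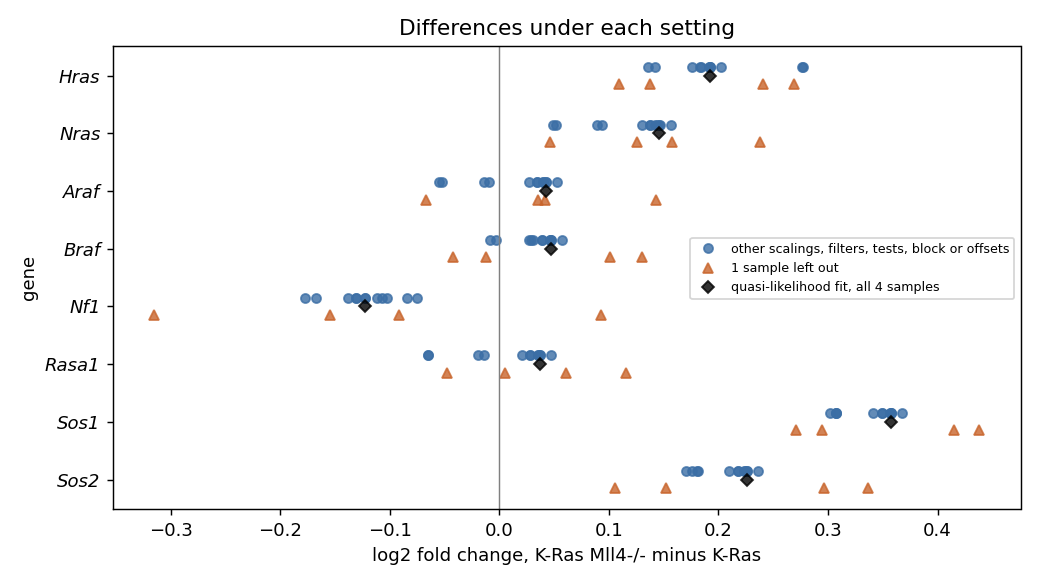
Log2 fold change of each gene (K-Ras Mll4-/- minus K-Ras) under each setting, with the fit to all 4 samples as diamonds, other scalings, filters, tests, the replicate block and offsets as circles, and fits without 1 sample as triangles. Hras, Nras, Sos1 and Sos2 stay above 0 in every fit shown, whereas Araf, Braf, Rasa1 and Nf1 cross it.

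Levels were set in order per length of transcript, as TMM-scaled CPM per kilobase of the longest GENCODE M21 transcript, averaged over the 4 samples. Nras was the most abundant at 26.5 CPM per kilobase, followed by Araf at 23.9 and Rasa1 at 23.2, whose ranges over samples overlapped in turn. Sos2 followed at 18.2 CPM per kilobase and stood apart from both neighbours in the order. Hras (14.1), Nf1 (13.9) and Braf (11.8 CPM per kilobase) came next, with Hras overlapping Nf1 and Nf1 overlapping Braf. Sos1 was lowest at 7.05 CPM per kilobase, and its highest sample, at 8.34, was under the lowest sample of Braf, at 11.1. On this scale the 2 isoforms differed more from each other than either did between the groups, Nras being above Hras in all 4 samples. The order rests on the transcript chosen: by the median length of each gene's transcripts, many of them fragments, Rasa1 came first and Braf was the third, while Sos1 stayed last.

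The genes whose profile over the 4 samples was most like that of a member were found by the root mean square difference between mean-centred log2(CPM + 0.5) values, among genes of at least 5 CPM. They were Hnrnpu for Hras (0.008), Trip12 for Nras (0.007), Ntmt1 for Araf (0.004), Exosc3 for Braf (0.008), St3gal3 for Rasa1 (0.007), Zfp260 for Sos1 (0.007) and Mprip for Sos2 (0.008). Such likeness was common over so few samples. Of 11905 genes compared, 14.7% lay within 0.1 of Rasa1 and 13.0% within 0.1 of Hras, but 8.05% within 0.1 of Sos1 and 4.57% within 0.1 of Nf1.

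The wider pathway was described with 8 lists of 76 genes, all of which were tested. None of the 76 was called by the edgeR quasi-likelihood test (background 0.0375%), while 21, or 27.6%, had an unadjusted edgeR p under 0.05 (background 21.8%), 13 of them higher and 8 lower. DESeq2 called 10 of the 75 that had an adjusted p, or 13.3%, beside 10.4% of all genes, with 6 higher and 4 lower. The groups did not overlap for 42 of the 76, beside 58.3% of all tested genes. Differences in the lists reached 2.43 on the log2 scale, beyond the 0.36 of the highest member.

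Among the other exchange factors, 5 of 6 had negative differences, with a median of -0.30, and without K-Ras replicate 1 it was 2 of 6, with a median of 0.09. The exception was Rasgrf1, which encodes a calcium-responsive RAS exchange factor best known from neurons and is imprinted in mice. Rasgrf1 stood at 3.34 and 8.22 CPM in the K-Ras samples and at 26.4 and 36.3 CPM in the K-Ras Mll4-/- samples. Every K-Ras Mll4-/- value was more than 3 times the highest K-Ras value. Its log2 difference of 2.43 (SE 0.49) was the largest in the pathway lists and was not called by the edgeR quasi-likelihood test (adjusted p = 0.154). Rasgrf1 was called by DESeq2 (adjusted p = 3.21e-05) and by the edgeR likelihood ratio test (adjusted p = 0.000304). It was the 1 DESeq2 call among the 6 genes of this list, or 16.7%, beside 10.4% of all genes with a DESeq2 adjusted p. Rasgrp3, the most read of these exchange factors, had 184 and 106 CPM in the K-Ras and 127 and 96.7 CPM in the K-Ras Mll4-/- samples. Rasgrf2, the relative of Rasgrf1, had a log2 difference of -0.30 with overlapping groups (edgeR quasi-likelihood adjusted p = 0.643). Rasgrp2, an exchange factor of platelets and lymphocytes, stood at 27.5 and 53.3 CPM in K-Ras and at 21.7 and 20.9 CPM in K-Ras Mll4-/- samples (log2 difference -0.92, edgeR quasi-likelihood adjusted p = 0.228), and its difference was -0.38 without K-Ras replicate 2 and -1.32 without K-Ras replicate 1.

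Of the other GTPase-activating proteins of RAS, 7 of 8 had negative differences, with a median of -0.57. The groups did not overlap for 6 of 8 (58.3% of all tested genes), 5 lower (28.5%) and 1 higher (29.9%). Negative differences numbered 7 under every scaling and 5 without K-Ras replicate 1. Rasal2, whose loss has been linked to RAS activation in tumours, stood at 135 and 182 CPM in K-Ras and at 101 and 87.4 CPM in K-Ras Mll4-/- samples, a log2 difference of -0.75 (edgeR quasi-likelihood adjusted p = 0.177). Rasa4, a calcium-triggered GTPase-activating protein, stood at 34.5 and 31.7 CPM in K-Ras and at 20.8 and 15.6 CPM in K-Ras Mll4-/- samples, a log2 difference of -0.86 (edgeR quasi-likelihood adjusted p = 0.158). DESeq2 called both, at adjusted p values of 0.0315 and 0.0177. They were 25% of the 8 genes of the list, beside 10.4% of all genes with a DESeq2 adjusted p. Dab2ip, the most read gene of the list, stood at 197 and 281 CPM in K-Ras and at 175 and 187 CPM in K-Ras Mll4-/- samples, and its log2 difference of -0.40 was not called. It was -0.15 with GC and length offsets, -0.13 without K-Ras replicate 2 and -0.63 without K-Ras replicate 1. Rasa3 had a log2 difference of -0.12 with overlapping groups. The highest difference of the list was that of Rasa2 (0.24). The summed endothelial and fibroblast markers were lower in the K-Ras Mll4-/- samples as given above, and their part in these differences was not tested.

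The scaffolds and chaperones of RAF had the most even direction, with positive differences for 14 of 15 genes under every scaling and a median of 0.31, beside -0.01 over all tested genes. The groups did not overlap for 12 of 15 (58.3% of all tested genes), 11 higher (29.9%) and 1 lower (28.5%). Leaving out 1 sample gave between 12 and 14 positive differences. Hsp90ab1, a chaperone on which RAF kinases depend, stood at 789 and 1002 CPM in K-Ras and at 1576 and 1731 CPM in K-Ras Mll4-/- samples, a log2 difference of 0.88 (edgeR quasi-likelihood adjusted p = 0.167). Cdc37, which delivers kinases to HSP90, had a log2 difference of 0.57 (edgeR quasi-likelihood adjusted p = 0.153). Pebp1, which encodes the RAF kinase inhibitor protein, stood at 23.8 and 26.04 CPM in K-Ras and at 47.2 and 48.0 CPM in K-Ras Mll4-/- samples, a log2 difference of 0.93 (edgeR quasi-likelihood adjusted p = 0.135). Ywhaz, a 14-3-3 protein of the kind that holds RAF inactive or stabilises its dimers, had a log2 difference of 0.66 (edgeR quasi-likelihood adjusted p = 0.154). DESeq2 called these 4 of the 14 genes of the list that had an adjusted p, or 28.6%, beside 10.4% of all genes. The edgeR quasi-likelihood test called none (background 0.0375%). Ywhae and Ppp1ca had log2 differences of 0.46 and 0.36, that of Ywhae being 0.30 with GC and length offsets. The most read gene was Iqgap1, a scaffold for RAF, MEK and ERK, at 1463 and 1741 CPM in K-Ras and 1886 and 1981 CPM in K-Ras Mll4-/- samples. Hsp90aa1 (log2 difference 0.31) ranged from 199 to 414 CPM within the K-Ras group, and its direction turned to -0.12 without K-Ras replicate 1. The 1 negative difference was that of Ksr1, a kinase suppressor of RAS that scaffolds RAF and MEK, at 30.3 and 31.4 CPM in K-Ras and 22.01 and 22.6 CPM in K-Ras Mll4-/- samples (log2 difference -0.47, edgeR quasi-likelihood adjusted p = 0.181), and offsets for GC content and length made the difference -0.28. Its relative Ksr2 had the highest difference of the list, 1.37, on levels under 1 CPM in every sample.

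Downstream, the MEK and ERK kinases had log2 differences from -0.10 to 0.35. Map2k1, which encodes MEK1, stood at 66.2 and 72.2 CPM in K-Ras and at 87.4 and 89.2 CPM in K-Ras Mll4-/- samples, a log2 difference of 0.35 (edgeR quasi-likelihood adjusted p = 0.209). Its partner Map2k2 (MEK2) had a log2 difference of 0.11 with overlapping groups. Mapk3, which encodes ERK1, had a log2 difference of -0.10. Other RAS effectors had negative differences for 9 of 14 genes, with a median of -0.21 that was -0.06 with GC and length offsets. The exchange factors Tiam1, which acts on RAC, and Rgl2, which acts on RAL, had log2 differences of -0.69 and -0.63 (edgeR quasi-likelihood adjusted p = 0.161 and 0.156). DESeq2 called both, or 14.3% of the 14 effectors, beside 10.4% of all genes with a DESeq2 adjusted p. The difference of Rgl2 was -0.42 with those offsets. Rassf1, a tumour suppressor with a RAS-association domain, had a log2 difference of -0.46. The most read effectors were the junction protein afadin (listed as Mllt4), Pik3ca and Rgl1, with log2 differences of -0.09, 0.09 and -0.53, the last being between -0.87 and -0.09 when 1 sample was left out. The highest value, 1.10 for Plce1, rested on 41.5 CPM in K-Ras Mll4-/- replicate 1 against 11.2 CPM in the other sample of that group, and it turned to -0.13 without the former.

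**Figure D4:**
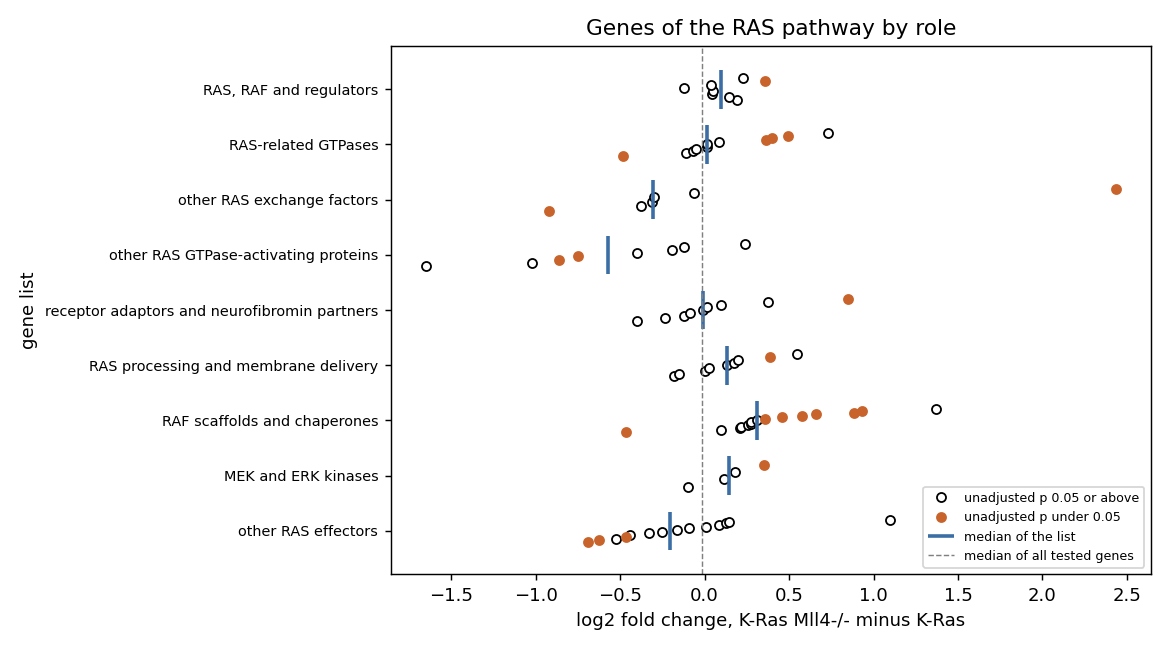
Log2 fold change (K-Ras Mll4-/- minus K-Ras) of the 8 members, in the top row, and of 76 further pathway genes in 8 lists by role, with 1 point per gene, filled where the unadjusted edgeR p was under 0.05. Blue bars are list medians and the dashed line is the median of all tested genes; the members lie closer together than most lists, and Rasgrf1 stands alone at 2.43.

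Genes that process RAS or relate to it were not called by the edgeR quasi-likelihood test. Of 9 genes for prenylation, trimming, palmitoylation and membrane delivery, 7 had positive differences under TMM scaling and 5 with upper quartile scaling, with a median of 0.13. Rce1, the protease that trims prenylated RAS, had a log2 difference of 0.39 (edgeR quasi-likelihood adjusted p = 0.228), and Zdhhc9, a palmitoyltransferase of H-RAS and N-RAS, had the highest at 0.55, which was 0.23 without K-Ras Mll4-/- replicate 2. The most read of this list, Icmt, Lypla1 and Fnta, had log2 differences of 0.03, 0.01 and 0.20, and Pggt1b the lowest at -0.18. Of 11 RAS-related GTPases, 7 had positive differences with TMM scaling and 5 with upper quartile scaling, and 4, or 36.4%, had an unadjusted edgeR p under 0.05, beside 21.8% of all tested genes. These were Rras2, Rheb, Rala and Mras. Rras2, Rheb and Rala had log2 differences of 0.49, 0.40 and 0.36 (0.24 for Rala with GC and length offsets), and Mras, whose product joins SHOC2 to activate RAF, had -0.49 (edgeR quasi-likelihood adjusted p = 0.180, 0.215, 0.199 and 0.212). Rap2b had the highest difference of these GTPases at 0.73, with 21.2 and 12.9 CPM in K-Ras against 31.0 and 25.5 CPM in K-Ras Mll4-/- samples, and its difference was 1.14 without K-Ras replicate 1 and 0.40 without K-Ras replicate 2. The most read of them, Rap1b and Ralb, had 0.09 and -0.05. Of 9 adaptors and neurofibromin partners, 4 had positive differences. Spred1, which brings neurofibromin to the membrane, stood at 144 and 190.2 CPM in K-Ras and at 245 and 356 CPM in K-Ras Mll4-/- samples. Its log2 difference was 0.85 (edgeR quasi-likelihood adjusted p = 0.192). DESeq2 called it at an adjusted p of 0.0467, and the edgeR likelihood ratio test did not (adjusted p = 0.0544). It was the 1 DESeq2 call among these 9 genes, or 11.1%, beside 10.4% of all genes with a DESeq2 adjusted p. Without K-Ras Mll4-/- replicate 2 the difference of Spred1 was 0.54. Ptpn11, the phosphatase SHP2 that helps load RAS, had a log2 difference of 0.02, Shc1 one of -0.09 and Gab2 the lowest at -0.40, which was -0.15 without K-Ras replicate 1 and -0.63 without K-Ras replicate 2.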

How the data were processed

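The deposited files hold raw read counts per gene symbol, 1 per sample. Per the submitters' processing notes, CASAVA 1.4, STAR, HTSeq and the mm9 build were used; the annotation and strand setting are not given in the sources used here. The layout is that of HTSeq. The deposited counts leave out reads aligned to several places, so genes with close copies are undercounted. Reads in no feature stayed out of library sizes. They were 43.25% and 42.68% of uniquely aligned reads in the K-Ras samples (replicates 1 and 2). In the K-Ras Mll4-/- samples they were 37.74% and 39.25%, lower in both than in either K-Ras sample. The part of this difference in the results was not tested. A floor of 3 reads, taken relative to all gene-assigned reads without TMM, is between 0.0818 and 0.112 CPM and covers counting error only.

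Groups were taken from the titles. Counts were filtered (filterByExpr, minimum count 10), scaled by TMM and fitted over all 4 samples with group as the term, using the robust quasi-likelihood test of edgeR 4.0.16 in R 4.3.3, with Benjamini-Hochberg adjustment over 16001 genes. The SE is the size of the log2 difference divided by the square root of the F statistic. Alternatives used DESeq2 1.42.0, limma 3.58.1 (voom), the likelihood ratio test, other scalings and filters, the replicate block, mgcv 1.9.3 offsets for GC content and length, and leaving out each sample. Lengths came from GENCODE M21 (GRCm38) for 23999 of 24391 genes, and start regions from RefSeq for 8 of 8 members, both on a later build than the authors'. The median log2 difference was 0.04 over tested genes of 57 to 1812 bases and -0.06 over those of at least 5125 bases. The latter include Braf, Nf1, Sos1 and Sos2. With GC and length offsets these medians were 0.01 and -0.01. The quasi-likelihood, likelihood ratio, DESeq2 and voom fits were also run on simulated counts with the same relative spread set for every gene. The block, offset and leave-one-out fits were not. Real genes differ in spread, so that run does not show how often the fits err on these samples. Using the longest protein-coding transcript as the length was added after seeing the data. The members and lists were chosen with earlier results of these data known. Named are the members, Kmt2d and Ptprc. From each list came the 3 genes of highest mean CPM and those of lowest and highest log2 difference. Genes of the lists with an unadjusted p under 0.05 were named too. Counts of the driver gene itself and values of some genes the rule would name are not reported here.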

Additional observations from a re-analysis of the deposited data

How the results depend on the processing

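In every alternative run, 0 of the 8 genes were called. Positive differences among them numbered 4 with upper quartile scaling and with total counts, and 4 to 8 when 1 sample was left out. Against 6 genes called over the whole table, 44 were called with no filter beyond 1 read, 1601 by DESeq2, 1503 by the likelihood ratio test and 0 by limma-voom, where 3228 had an unadjusted p under 0.05 (3484 with the quasi-likelihood test). Leaving out 1 sample gave 0 to 528, the highest without K-Ras replicate 1 and 0 without each of the other 3 (965 to 3549 at an unadjusted p under 0.05), and the lone sample of a group is then assumed to vary like the other group. DESeq2 called 10 of the 75 pathway genes that had an adjusted p, or 13.3%, beside 10.4% of all genes with one. The likelihood ratio test called 9 of the 76 pathway genes, beside 9.39% of all tested genes. Without K-Ras replicate 1 the log2 difference of Rasgrp2 was -1.32.

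The replicate number pairs samples only by its label. Deviations of same-numbered samples from their group means correlated at 0.24 across genes. With the replicate block 217 genes were called, 141 when GC and length offsets were added, and 1 pathway gene, Rasgrf1, with the block alone (edgeR quasi-likelihood adjusted p = 0.0421).

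With upper quartile scaling the sign of the log2 difference turned for Araf (-0.014), Braf (-0.0091), Rasa1 (-0.020), Ptpn11 (-0.041), Icmt (-0.031) and Lypla1 (-0.055). With total counts only the sign of the log2 difference turned for Araf (-0.0095), Braf (-0.00325), Rasa1 (-0.014), Ptpn11 (-0.035), Icmt (-0.024) and Lypla1 (-0.052). With GC and length offsets the sign of the log2 difference turned for Araf (-0.053), Rasa1 (-0.065), Rap1b (-0.077) and Lypla1 (-0.11). With the replicate block and those offsets the sign of the log2 difference turned for Araf (-0.055), Rasa1 (-0.065), Rap1b (-0.076) and Lypla1 (-0.11). With a filter of 1 CPM in 2 samples the sign of the log2 difference turned for Ptpn11 (-0.000516) and Lypla1 (-0.011). With RLE size factors the sign of the log2 difference turned for Lypla1 (-0.0055). With DESeq2 the sign of the log2 difference turned for Lypla1 (-0.0055). When 1 sample was left out the sign turned for Araf (-0.067 to 0.14), Braf (-0.043 to 0.13), Nf1 (-0.32 to 0.093), Rasa1 (-0.048 to 0.12), Rap1b (-0.055 to 0.23), Ralb (-0.18 to 0.080), Rasgrp3 (-0.73 to 0.075), Rasgrf2 (-0.65 to 0.10) and Rasa3 (-0.38 to 0.17), and for Ptpn11 (-0.040 to 0.064), Shc1 (-0.23 to 0.065), Icmt (-0.037 to 0.083), Lypla1 (-0.16 to 0.18), Hsp90aa1 (-0.12 to 0.92), Mllt4 (-0.21 to 0.030), Pik3ca (-0.030 to 0.19) and Plce1 (-0.13 to 1.75). Each range gives the lowest and highest value over the 4 fits. The cause of these turns was not tested.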
